A study of Rattus norvegicus with 7 samples.

Results

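The genes described here encode proteins of complexes II to V of oxidative phosphorylation, measured on Affymetrix arrays of NRK-52E cells, a cell line from rat kidney. They were taken as all probe sets with a single gene symbol in the platform annotation that starts with Sdha, Sdhb, Sdhc, Sdhd, Uqcr, Cyc1, Cycs, Cox4i, Cox5, Cox6, Cox7, Cox8 or Atp5. This gave 56 of 31042 probe sets, for 49 genes: 10 probe sets for complex II, 9 for complex III, 17 for complex IV and 20 for complex V. Of these 56, 47 probe sets of 44 genes were bright enough to be tested, among 18625 tested in all. A further 7 probe sets carried several symbols, those of cytochrome c among them, and were left out of the set.

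Complexes II, III and IV of the inner mitochondrial membrane pass electrons on to oxygen. Complex II (succinate dehydrogenase) takes them from succinate, complex III (the cytochrome bc1 complex) passes them from ubiquinol to cytochrome c, and complex IV (cytochrome c oxidase) passes them from cytochrome c to oxygen. Complexes III and IV pump protons, and complex V, the ATP synthase, uses the returning protons to make ATP. Complex II is encoded wholly in the nucleus, whereas a few core subunits of complexes III, IV and V are encoded by mitochondrial DNA. Kidney tubule cells rely on this pathway for the energy of salt transport, although cultured lines also use glycolysis.

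The series asked what an siRNA against Adamts16, a secreted metalloprotease studied for its link to blood pressure, does to the cells. Cultures seeded at 20% confluence in medium with 10% serum were transfected after 6 h with 100 pmol of siRNA duplex per ml, and RNA was taken after 48 h. There were 2 cultures with siRNA 3488, 2 with siRNA 2600 and 3 with a scrambled siRNA as the control, each culture on its own array. All 7 cultures were of the same line and had been transfected with a duplex, so none is an untransfected reference. The antisense strands, without their 2-base overhangs, are shown because the groups differ by them, with bases 2 to 8 from the 5′ end, the seed, in capitals.
siRNA 3488: tTTCCGGAgacgtacttct
siRNA 2600: tTGCGCACagaaatatagg
Scrambled control: aTTACCGAgcacattggagg
The seeds differ between all 3 strands.

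Signals are linear, in arbitrary units, and every array had been scaled to the same trimmed mean. Adamts16 itself could not be followed, since its probe set read 12.1 and 40.4 with siRNA 3488, 21.4 and 2.42 with siRNA 2600, and 7.18 to 18.9 with the control, too dim to be tested. Among markers of kidney tubule epithelium, 8 of 20 were bright enough to be tested. Keratin 8 (Krt8) and the tight junction gene Tjp1 averaged signals of 6185 and 6196 over the 7 arrays, while Cdh1, Cdh16, Epcam and Krt18 averaged 4.73 to 15.3. The summed signal of the epithelial list was 14752 to 15246 with siRNA 3488, 13731 to 13932 with siRNA 2600 and 13627 to 14720 with the control. Of the fibroblast list 10 of 14 markers were tested, and its sum was 63466 to 69968 with siRNA 3488, 51323 to 55688 with siRNA 2600 and 48607 to 52197 with the control. That sum rests mostly on Col3a1 and Mfap5, which averaged 21513 and 19047 over the 7 arrays, while Pdgfra, Thy1, Dcn and Lum averaged 7.9 to 32.4 and were not tested. The leukocyte list, with 1 marker tested, summed to 458 to 464 with siRNA 3488, 268 to 385 with siRNA 2600 and 285 to 336 with the control. The muscle list (4 of 12 tested) summed to 740.4 to 945 with siRNA 3488, 709 to 746 with siRNA 2600 and 715 to 737 with the control, while the endothelial list (1 tested) summed to 318 to 323 with siRNA 3488, 273 to 361 with siRNA 2600 and 297 to 353 with the control. The hybridisation spike-ins are bacterial and phage transcripts added to each sample, each read by several probe sets. With siRNA 3488 their 18 probe sets were also brighter. The median log2 differences from the control mean were 0.34 and 0.71 on the 2 arrays. The corresponding values were -0.08 and 0.13 with siRNA 2600, and -0.06 to 0.03 among the control arrays. The ratio of the 3′ to the 5′ beta-actin probe set, a measure of RNA integrity, was 1.96 and 1.94 with siRNA 3488, 1.83 and 1.81 with siRNA 2600 and 1.74 to 1.79 with the control. The same ratio for hexokinase was 4.71 and 3.73 with siRNA 3488, 3.54 and 2.28 with siRNA 2600 and 2.39 to 2.98 with the control. For GAPDH it was 0.94 and 0.93 with siRNA 3488, 1.04 and 0.93 with siRNA 2600 and 0.91 to 0.95 with the control, so the groups overlapped.

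The first comparison was siRNA 3488 against the control. In cells with siRNA 3488, 34 of 47 tested probe sets of complexes II to V were called higher (limma adjusted p under 0.05) and 0 lower. The share called higher among all 18625 was 6.89%, and 8.74% were called lower. The median log2 change was 0.34, the range was -0.18 to 1.48, and 44 of 47 changes were above 0, while the median of all tested probe sets was -0.06. Both siRNA 3488 arrays lay above all 3 control arrays for 40 of the 47, against 19.2% of all probe sets. That share was not counted among probe sets of equal brightness. By complex, 4 of 9 probe sets rose for complex II, 5 of 9 for complex III, 9 of 12 for complex IV and 16 of 17 for complex V. These counts take no account of brightness, in which the complexes differ. After quantile normalization 5 of the 34, those of Cox4i1, Atp5mc3, Atp5pd, Atp5f1a and Uqcrfs1, had log2 changes of -0.03 to -0.00.

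These probe sets are among the brightest on the arrays, and with siRNA 3488 bright probe sets were higher in general. When the 18625 were divided into 20 classes of equal size by mean log2 signal, 33 of the 47 fell in the brightest. In that brightest twentieth 28 of 33 complex II to V probe sets were called higher (84.8%), and so were 55.3% of the 895 others. Their median log2 change was 0.36, against 0.25 for the others of that twentieth. The 47 together stood a median of 0.14 above the median of their own twentieth. Within the brightest twentieth the change still varied with signal, so each probe set was also set against the 200 others nearest to it in signal, a choice made after seeing the data. By that measure the median excess was 0.20, with 40 of 47 above their neighbours in brightness. By complex the median excess was 0.21 for complex II, 0.13 for complex III, 0.13 for complex IV and 0.24 for complex V. The order of the complexes by excess thus differs from that by calls, and differences between complexes were not tested. Outside the brightest twentieth there were 14, of which 6 were called higher, and the changes of the 14 had a median of 0.22. In the twentieths that hold them, 1.83% to 17.6% of the others were called higher. The 200 neighbours of those 14 had a typical change of -0.05, and the typical excess was 0.22 (medians). Brightness here is that of a probe set, and does not rank transcripts by amount.

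**Figure D1:**
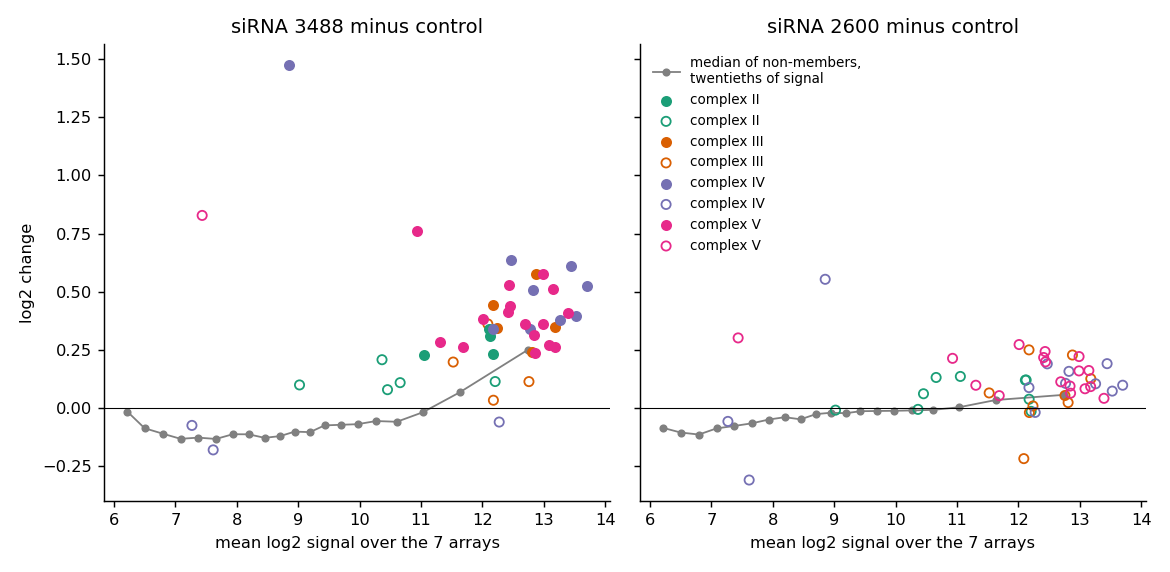
Log2 change against mean log2 signal over the 7 arrays for the 47 tested probe sets of complexes II to V, with siRNA 3488 on the left and siRNA 2600 on the right; filled points were called higher (limma adjusted p under 0.05), open points were not called, and the grey line joins the medians of the other probe sets in each twentieth of signal. With siRNA 3488 the grey line ends at 0.25 in the brightest twentieth and most points lie above it, while with siRNA 2600 it ends at 0.06 and no point was called.

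The size of the set's rise differed between arrays. With siRNA 3488, 41 and 44 of the 47 probe sets stood above the brightest control array. The median log2 difference of the 47 from the control mean was 0.26 and 0.39 on these 2 arrays. For the 895 others of the brightest twentieth the same medians were 0.21 and 0.30. The spike-in medians, the beta-actin and hexokinase ratios and the summed epithelial, fibroblast and leukocyte markers given above were above the control on both siRNA 3488 arrays, as was the muscle sum. The GAPDH ratio and the endothelial sum were not. Their part in the result was not tested. Without siRNA 3488 replicate 2 the number called was 7, and without control replicate 1 it was 16. With quantile normalization it was 17, with cyclic loess 19 and without the intensity trend in the variance 3. The median changes after these normalizations were 0.16 and 0.18. Over all 18625 probe sets the higher calls fell as well, from 1283 to 535 without control replicate 1. They were 852 with quantile normalization, 990 with cyclic loess and 211 without the intensity trend.

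**Figure D2:**
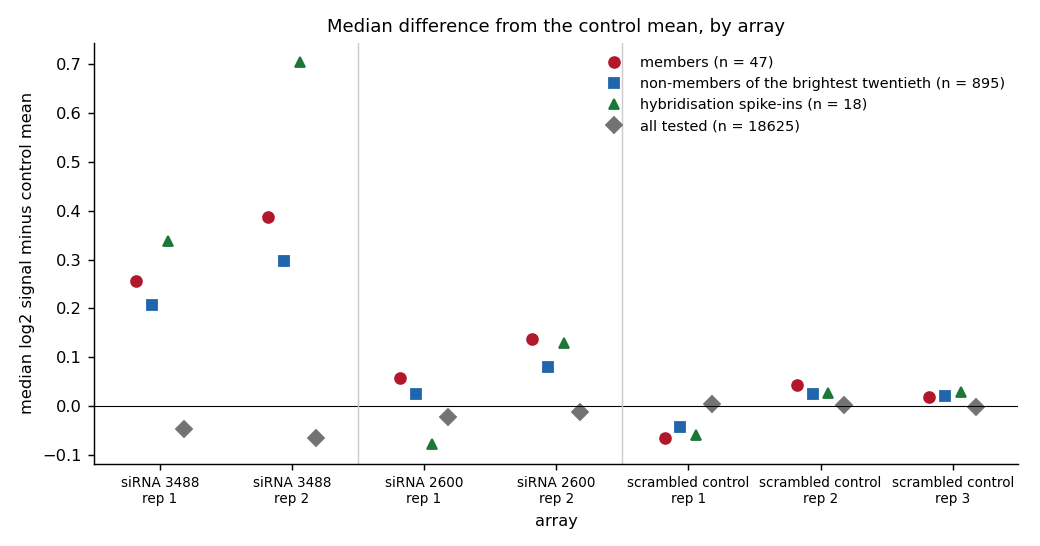
Median log2 signal minus the mean of the 3 control arrays, for each array, of the 47 tested probe sets of complexes II to V (members), of the 895 other probe sets in the brightest twentieth, of the 18 probe sets of the hybridisation spike-ins and of all 18625 tested probe sets. On the siRNA 3488 arrays the members (0.26 and 0.39) lie above the bright probe sets (0.21 and 0.30) and below the spike-ins (0.34 and 0.71), while all tested probe sets lie at -0.05 and -0.07.

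In complex II the subunits and the assembly factors differed in count. Sdha and Sdhb carry the flavin and the iron-sulphur clusters, and Sdhc and Sdhd anchor them in the membrane and bind ubiquinone. The iron-sulphur subunit gene Sdhb had signals of 4799 and 5391 in siRNA 3488 cultures, 4513 and 4413 in siRNA 2600 cultures, and 4036, 4224 and 4059.6 in control cultures. Both siRNA 3488 arrays exceeded all others, the siRNA 2600 arrays also exceeded the control, and the log2 change with siRNA 3488 was 0.31 ± 0.0661 (SE; limma adjusted p = 0.014). For the anchor subunit gene Sdhd, the brighter probe set read 5063 and 5169.7 in siRNA 3488 cultures, 4410.3 and 4383 in siRNA 2600 cultures, and 3893, 4365 and 3898 in control cultures, a log2 change of 0.34 with siRNA 3488 (adjusted p = 0.0107). Its dimmer probe set read 2339 and 2295 in siRNA 3488 cultures, 2088 and 2265 in siRNA 2600 cultures, and 1938, 1948 and 2054 in control cultures, a change of 0.23 (adjusted p = 0.0444). Both probe sets of Sdhd thus passed the test, and neither siRNA group overlapped the control. The anchor gene Sdhc read 5053 and 5245 in siRNA 3488 cultures, 4372 and 4625 in siRNA 2600 cultures, and 4216, 4578 and 4355 in control cultures, and rose with siRNA 3488 by 0.23 (adjusted p = 0.0331).

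The flavoprotein gene Sdha, the catalytic subunit, was not called. It read 4831 and 5209 in siRNA 3488 cultures, 4667 and 4514 in siRNA 2600 cultures, and 4640.0, 4692 and 4577 in control cultures, with a log2 change of 0.11 (95% interval -0.02 to 0.25; adjusted p = 0.223), the same as its neighbours in brightness. None of the 4 tested assembly factor genes, Sdhaf1 to Sdhaf4, was called (1 had an unadjusted limma p under 0.05). These factors help insert the flavin and the iron-sulphur clusters and are not part of the finished enzyme. Sdhaf1 read 1487 and 1439 in siRNA 3488 cultures, 1210.1 and 1315 in siRNA 2600 cultures, and 1259, 1229 and 1313 in control cultures, a change of 0.21 (adjusted p = 0.0777), and its siRNA 3488 arrays lay above the control. For Sdhaf4 the values were 1526 and 1814 in siRNA 3488 cultures, 1517 and 1882 in siRNA 2600 cultures, and 1474, 1637 and 1522 in control cultures, and the arrays of all groups overlapped. Sdhaf2 and Sdhaf3 had changes of 0.08 and 0.10. The median change was 0.23 over the 5 subunit probe sets and 0.10 over the 4 assembly factors, but the excess over neighbours in brightness was 0.21 and 0.18.

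In complex III 3 of the 4 small subunit genes rose, and these were the largest of its 5 called changes. Uqcr10, a small subunit without a redox centre, had signals of 8926 and 10286 in siRNA 3488 cultures, 7386 and 7670.2 in siRNA 2600 cultures, and 6139, 6799.9 and 6359.9 in control cultures. All siRNA arrays lay above the control and the siRNA 3488 arrays were highest. The log2 difference was 0.58 ± 0.0751 (SE; limma adjusted p = 0.00298), 0.33 above neighbours in brightness. Uqcrq, which lies close to cytochrome b in the complex, read 5191 and 5759 in siRNA 3488 cultures, 4445 and 5152 in siRNA 2600 cultures, and 3590.4, 4322 and 4200.1 in control cultures. It rose by 0.44 with siRNA 3488 (adjusted p = 0.0144). The hinge protein gene Uqcrh read 10038 and 11527 in siRNA 3488 cultures, 9013 and 9406 in siRNA 2600 cultures, and 8075, 8657 and 8593 in control cultures, a change of 0.35 (adjusted p = 0.0122). Its excess over neighbours in brightness was 0.07, so most of its change was shared by probe sets of equal brightness. The remaining small subunit gene, Uqcr11, read 4544 and 4926 in siRNA 3488 cultures, 4607 and 4516 in siRNA 2600 cultures, and 4470.0, 4723 and 4680.2 in control cultures, a change of 0.03 (95% interval -0.10 to 0.17) that did not pass the test and was negative with quantile normalization and with cyclic loess.

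Of the redox subunits of complex III, cytochrome c1 (Cyc1), which hands electrons to cytochrome c, had signals of 5664 and 5758 in siRNA 3488 cultures, 4595 and 4465 in siRNA 2600 cultures, and 4531, 4428 and 4549 in control cultures. The siRNA 2600 arrays overlapped the control, the siRNA 3488 arrays did not, and the change was 0.34 ± 0.0559 (SE; adjusted p = 0.00572). The Rieske iron-sulphur protein gene Uqcrfs1 read 8011 and 8089 in siRNA 3488 cultures, 6761 and 7089 in siRNA 2600 cultures, and 6699, 7031 and 6711 in control cultures. It was called with a change of 0.24 (adjusted p = 0.0217), yet its excess over neighbours in brightness was 0.01 and its change after quantile normalization was -0.01. The core proteins Uqcrc1 and Uqcrc2 bear the complex on its matrix side. Uqcrc1 read 3225 and 3186 in siRNA 3488 cultures, 2906 and 2940.3 in siRNA 2600 cultures, and 2683, 2776 and 2932 in control cultures, with the siRNA 3488 arrays above the control and a change of 0.20 that just missed the threshold (adjusted p = 0.0572). Uqcrc2 read 7015 and 7485 in siRNA 3488 cultures, 6639 and 7279 in siRNA 2600 cultures, and 6468, 6803 and 6829 in control cultures for its brighter probe set, a change of 0.11 (adjusted p = 0.265). Its dimmer probe set read 4829 and 6117 in siRNA 3488 cultures, 2453 and 5396 in siRNA 2600 cultures, and 4028, 4283 and 4389 in control cultures. There the siRNA 2600 arrays differed more than 2-fold from each other, and no comparison was called.

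In complex IV all 9 tested genes of its widely expressed subunits were called higher, with a median change of 0.51 and a median excess over neighbours in brightness of 0.24. These nuclear-encoded subunits surround the catalytic core, which mitochondrial DNA encodes. Cox6a1, the form of subunit VIa found outside heart and skeletal muscle, had signals of 7098 and 7892 in siRNA 3488 cultures, 5333 and 5659 in siRNA 2600 cultures, and 4540.3, 4946 and 4976 in control cultures. The siRNA 3488 arrays were highest, the siRNA 2600 arrays stood between them and the control, and the log2 change with siRNA 3488 was 0.64 ± 0.0712 (SE; limma adjusted p = 0.00178), the lowest adjusted p among the 47. Cox7b read 13190.2 and 15976 in siRNA 3488 cultures, 10241 and 11499 in siRNA 2600 cultures, and 8917, 10073 and 9573 in control cultures, a change of 0.61 (adjusted p = 0.0044). Cox6b1, which links the monomers of the dimer on the outer face, read 8488 and 9587 in siRNA 3488 cultures, 6675 and 7523 in siRNA 2600 cultures, and 5966, 6694 and 6423 in control cultures, a change of 0.51 (adjusted p = 0.00557). For Cox6a1 and Cox7b the siRNA 2600 arrays also exceeded all control arrays, whereas for Cox6b1 they overlapped them.

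Cox6c, another small subunit, read 15406 and 18552 in siRNA 3488 cultures, 11869.8 and 13305 in siRNA 2600 cultures, and 10922, 12337 and 12016 in control cultures. It rose with siRNA 3488 by 0.53 ± 0.0915 (SE; adjusted p = 0.00702), although very bright neighbours rose too and its excess over them was 0.14. Cox8a, the widely expressed form of subunit VIII, read 7849.9 and 8329 in siRNA 3488 cultures, 6667 and 7072 in siRNA 2600 cultures, and 6116, 6633 and 6402 in control cultures, a change of 0.34 (adjusted p = 0.00872). Cox4i1, the widely expressed form of subunit IV, read 13153 and 15221 in siRNA 3488 cultures, 11193 and 11465 in siRNA 2600 cultures, and 10045, 11112 and 11199 in control cultures, a change of 0.39 (adjusted p = 0.0107). Its excess over neighbours in brightness was 0.05 and its change after quantile normalization -0.00. The matrix-side subunit gene Cox5b and the small subunit gene Cox7c rose by 0.34 and 0.38. Cox5a, also on the matrix side, had the largest change of all, 1.48 ± 0.41 (SE; adjusted p = 0.036), on a dim probe set that read 789 and 939 in siRNA 3488 cultures, 247 and 835 in siRNA 2600 cultures, and 288, 241 and 427 in control cultures. One siRNA 2600 array lay within the control range there and the other near the siRNA 3488 arrays. The call was lost in 6 of 17 alternatives, among them those without siRNA 3488 replicate 1 (limma adjusted p = 0.0906) and without replicate 2 (limma adjusted p = 0.199).

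Genes of complex IV outside the widely expressed subunits were not called in any comparison. Cox7a2l, which encodes a factor that joins complexes III and IV in supercomplexes, read 4739 and 4904 in siRNA 3488 cultures, 5165 and 4766 in siRNA 2600 cultures, and 5053, 5206 and 4830.5 in control cultures. The groups overlapped, and its change of -0.06 (95% interval -0.20 to 0.08; adjusted p = 0.553) was -0.19 relative to its neighbours in brightness. With median centring it was 0.03. Cox7a1, the form of subunit VIIa made mainly in heart and muscle, read 189 and 193 in siRNA 3488 cultures, 173 and 176 in siRNA 2600 cultures, and 183, 219.6 and 252 in control cultures, with both siRNA 2600 arrays below the control. The pseudogene Cox6c-ps1 read 164 and 138 in siRNA 3488 cultures, 139 and 167 in siRNA 2600 cultures, and 149, 163 and 164 in control cultures, and its probe set may also take up Cox6c transcript. The other tissue forms were below the level of the test. Cox4i2, a form known from lung, read 78.3 and 16.5 in siRNA 3488 cultures, 7.99 and 12.9 in siRNA 2600 cultures, and 10.7, 66 and 27.9 in control cultures. The muscle form Cox6a2 read 13.7 and 12.9 in siRNA 3488 cultures, 2.54 and 14 in siRNA 2600 cultures, and 36.3, 13.1 and 5.97 in control cultures. The muscle form Cox8b read 3.36 and 4.04 in siRNA 3488 cultures, 6.99 and 5.26 in siRNA 2600 cultures, and 6.39, 1.69 and 2.35 in control cultures. Each siRNA group overlapped the control for all 3 genes, at signals too dim to be tested. The testis form Cox6b2 read 2.13 and 9.91 in siRNA 3488 cultures, 6.26 and 6.84 in siRNA 2600 cultures, and 13.9, 15.9 and 1.87 in control cultures. The testis form Cox7b2 read 32.5 and 5.06 in siRNA 3488 cultures, 13.3 and 28.3 in siRNA 2600 cultures, and 35.5, 32.4 and 29.4 in control cultures, with both siRNA 2600 arrays below the control, while the other comparisons of these testis forms with the control overlapped.

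In complex V, 16 of 17 tested probe sets rose with siRNA 3488, and both siRNA 3488 arrays lay above all control arrays for all 17. The enzyme has a catalytic F1 head in the matrix, a ring of c subunits that turns in the membrane, and a peripheral stalk that holds the head still. The 5 tested genes of the F1 head all rose, with a median of 0.32 and an excess over neighbours in brightness of 0.16. Atp5f1b, the beta subunit with the catalytic sites, read 7569.9 and 7897 in siRNA 3488 cultures, 6448 and 6553 in siRNA 2600 cultures, and 6033, 5898 and 6107 in control cultures. The groups did not overlap, and it rose by 0.36 ± 0.0565 with siRNA 3488 (SE; limma adjusted p = 0.00495). The epsilon subunit gene Atp5f1e rose by 0.41, the gamma subunit gene Atp5f1c, part of the turning shaft, by 0.32 and the delta subunit gene Atp5f1d by 0.26. The alpha subunit gene Atp5f1a had a change of 0.24 (adjusted p = 0.0434) with an excess over neighbours in brightness of -0.01.

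All 4 genes of the peripheral stalk were called as well, with a median of 0.42. Atp5pf, coupling factor 6, read 6336 and 7426 in siRNA 3488 cultures, 5481 and 5759.8 in siRNA 2600 cultures, and 4556, 5169 and 4547 in control cultures. The siRNA 3488 arrays were highest, both siRNA groups exceeded the control, and the change was 0.53 (adjusted p = 0.00547). Atp5po, the subunit that gives oligomycin sensitivity by tying the stalk to the head, read 6213 and 7094 in siRNA 3488 cultures, 5499 and 5758 in siRNA 2600 cultures, and 4599.7, 5103 and 5024 in control cultures on its tested probe set, a change of 0.44 (adjusted p = 0.00685). Atp5pb, the b subunit that forms the length of the stalk, read 12517 and 13635 in siRNA 3488 cultures, 9824 and 10437 in siRNA 2600 cultures, and 9117, 10117 and 10324 in control cultures. Its siRNA 2600 arrays overlapped the control and its siRNA 3488 arrays did not, with a change of 0.41 (adjusted p = 0.00755). The d subunit gene Atp5pd had a change of 0.26 (adjusted p = 0.0472), -0.02 relative to neighbours in brightness.

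The small subunits of the membrane part, which shape the dimer and the inner membrane folds, had the highest median of the complex V subunits, 0.51 over 5 tested genes. Atp5mk, a small subunit tied to the stability of the complex, read 9694 and 11270.4 in siRNA 3488 cultures, 7622 and 8056 in siRNA 2600 cultures, and 6590.0, 7439 and 7045 in control cultures. It rose by 0.58 ± 0.0796 with siRNA 3488 (SE; adjusted p = 0.00345). Atp5mg, subunit g, which supports dimers, read 10379 and 12344 in siRNA 3488 cultures, 8359 and 9429 in siRNA 2600 cultures, and 7488, 8340.3 and 8015 in control cultures, a change of 0.51 (adjusted p = 0.00685). Atp5me, subunit e, read 2332 and 3172 in siRNA 3488 cultures, 1626 and 2133 in siRNA 2600 cultures, and 1608, 1594 and 1616 in control cultures, a change of 0.76 ± 0.13 (adjusted p = 0.00716), and its excess over neighbours in brightness was 0.81. The siRNA 3488 arrays exceeded the others for all 3 genes, and those of Atp5me differed most from each other. Atp5mf and Atp5mpl rose by 0.36 and 0.29. Atp5mc3, a gene for the c subunit of the ring, rose by 0.27 with an excess over neighbours in brightness of 0.00.

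Atp5if1 encodes the inhibitor that stops the enzyme from splitting ATP when the proton gradient fails, and its probe sets disagreed in call. The brightest probe set read 4466 and 5009 in siRNA 3488 cultures, 4353 and 4403 in siRNA 2600 cultures, and 3607, 3737 and 3531 in control cultures, with a change of 0.38 with siRNA 3488 (adjusted p = 0.0069) and of 0.27 with siRNA 2600 (adjusted p = 0.0957). Here both siRNA groups stood clear of the control and close to each other. A dimmer probe set read 280.4 and 215 in siRNA 3488 cultures, 128 and 228 in siRNA 2600 cultures, and 112, 124 and 189.6 in control cultures, and its change of 0.83 with siRNA 3488 was not called (adjusted p = 0.08). The dimmest probe set read 81.7 and 71.6 in siRNA 3488 cultures, 60.2 and 127 in siRNA 2600 cultures, and 47.4, 42.9 and 45.3 in control cultures, below the level of the test. The remaining probe sets below that level were second ones of Sdhaf2 (9.45 to 17.4), Atp5me (5.47 to 37.9) and Atp5po (5.1 to 104).

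**Figure D3:**
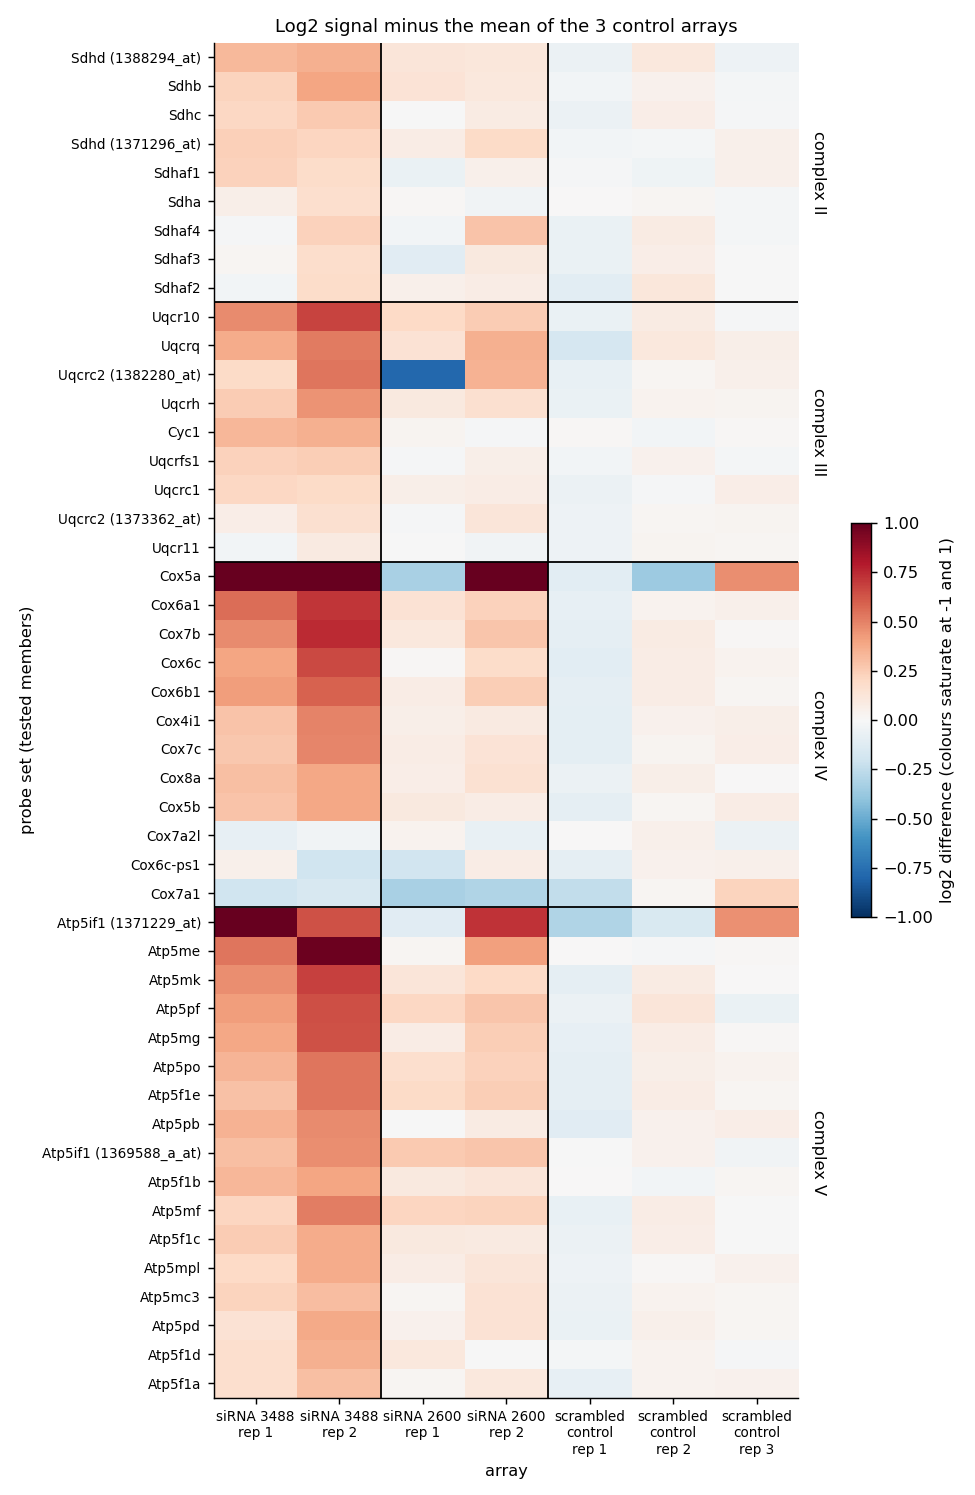
Log2 signal minus the mean of the 3 control arrays for the 47 tested probe sets of complexes II to V (rows, by complex and by falling change with siRNA 3488) on the 7 arrays (columns); red is higher and blue lower than the control mean, with colours saturated at 1 and -1. The siRNA 3488 columns are red in most rows of complexes IV and V and paler for the assembly factors of complex II, and the second of them (median 0.39) is darker than the first (median 0.26).

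The second comparison was siRNA 2600 against the control. With siRNA 2600, 0 of the 47 probe sets were called in limma, and 8, all higher, had an unadjusted p under 0.05. Of all 18625, 1.03% were called either way and 6.41% were higher at an unadjusted p under 0.05. The latter share was not counted among probe sets of equal brightness, and 7 of the 8 lie in the brightest twentieth. The median log2 change was 0.10, against -0.02 for all tested probe sets. In the brightest twentieth it was 0.10 for the 33 of the set and 0.06 for the others. Both siRNA 2600 arrays lay above all control arrays for 22 of the 47 and below them for 1, Cox7a1. All probe sets gave 14.4% above. In the brightest twentieth 18 of the 33 of the set lay above, and 29.4% of the others. The arrays differed from each other: 24 of the 47 stood above the brightest control on replicate 1 and 40 on replicate 2, with median differences from the control mean of 0.06 and 0.14.

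The lowest adjusted p with siRNA 2600 was that of Atp5if1, given above. The other 7 with an unadjusted p under 0.05 were Uqcr10 (0.23), Uqcrq (0.25), Cox6a1 (0.19), Atp5f1e (0.22), Atp5mf (0.22), Atp5pf (0.24) and Atp5po (0.20), as log2 changes, with adjusted p of 0.188 to 0.259. For Atp5mf the siRNA 2600 arrays (8417 and 8455) were close to siRNA 3488 replicate 1, and all 4 lay above the control. By complex the median changes with siRNA 2600 were 0.06 for complex II, 0.05 for complex III, 0.10 for complex IV and 0.16 for complex V. The intervals around single changes remain wide: for Cox6c, 0.10 with a 95% interval of -0.11 to 0.30, and for Cox4i1, 0.07 with -0.10 to 0.25.

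Both siRNAs together were then set against the control, in a fit of 2 groups that keeps the difference between the siRNAs in the spread. In limma 0 of 47 were called, and 25, all higher, had an unadjusted p under 0.05. Of all probe sets 0.145% were called, and 6.78% were higher at that unadjusted level. The latter share was not counted among probe sets of equal brightness, and 20 of the 25 lie in the brightest twentieth. All 4 siRNA arrays lay above all 3 control arrays for 22 of the 47, against 6.66% of all probe sets. In the brightest twentieth they did so for 18 of the 33 of the set and 25.1% of the others. The median change was 0.21 over the 47. In the brightest twentieth it was 0.23 over the 33 of the set and 0.16 over the others. Of the 22, 3 belonged to complex II, 3 to complex III, 5 to complex IV and 11 to complex V. Atp5if1 again had the lowest adjusted p, 0.0872, with a change of 0.33 ± 0.0709 (SE). Averaging the effects of the siRNAs in the fit of 3 groups gave 22 calls, and leaving out siRNA 2600 replicate 1 gave 14. Calls over all 18625 probe sets also grew, from 19 higher and 8 lower. They were 665 higher and 713 lower in the fit of 3 groups. Without siRNA 2600 replicate 1 they were 597 higher and 719 lower.

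The last comparison set siRNA 3488 against siRNA 2600 and so tested the difference between their effects. Of the 47, 9 were called higher with siRNA 3488 and 0 lower. Among all probe sets 2.84% were called higher, and in the brightest twentieth 26.8% of the others were, against 9 of 33. The median change was 0.22 over the 47. In the brightest twentieth it was 0.24 over the 33 of the set and 0.20 among the others. Both siRNA 3488 arrays lay above both siRNA 2600 arrays for 36 of the 47, against 21.9% of all. That share was not counted among the others of the brightest twentieth. The calls were Cyc1 and Uqcr10 of complex III, Cox6a1, Cox6b1, Cox6c and Cox7b of complex IV, and Atp5mk, Atp5pb and Atp5f1b of complex V. Their log2 differences lay between 0.25 (Atp5f1b) and 0.45 (Cox6a1), with adjusted p from 0.0159 to 0.047. Complex II had no call (limma; 4 of 9 with an unadjusted p under 0.05). The count depended on single arrays: it was 0 without siRNA 3488 replicate 2 or without siRNA 2600 replicate 1, and 15 without siRNA 3488 replicate 1. It was 2 to 4 without any 1 control array, and 0 with only the 4 siRNA arrays in the fit. With quantile normalization the count was 1, with cyclic loess 3, without a filter on dim probe sets 2 and without the intensity trend 0. Higher calls over all probe sets fell too, from 529 to 238, 321, 183 and 2 in the same order.

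**Figure D4:**
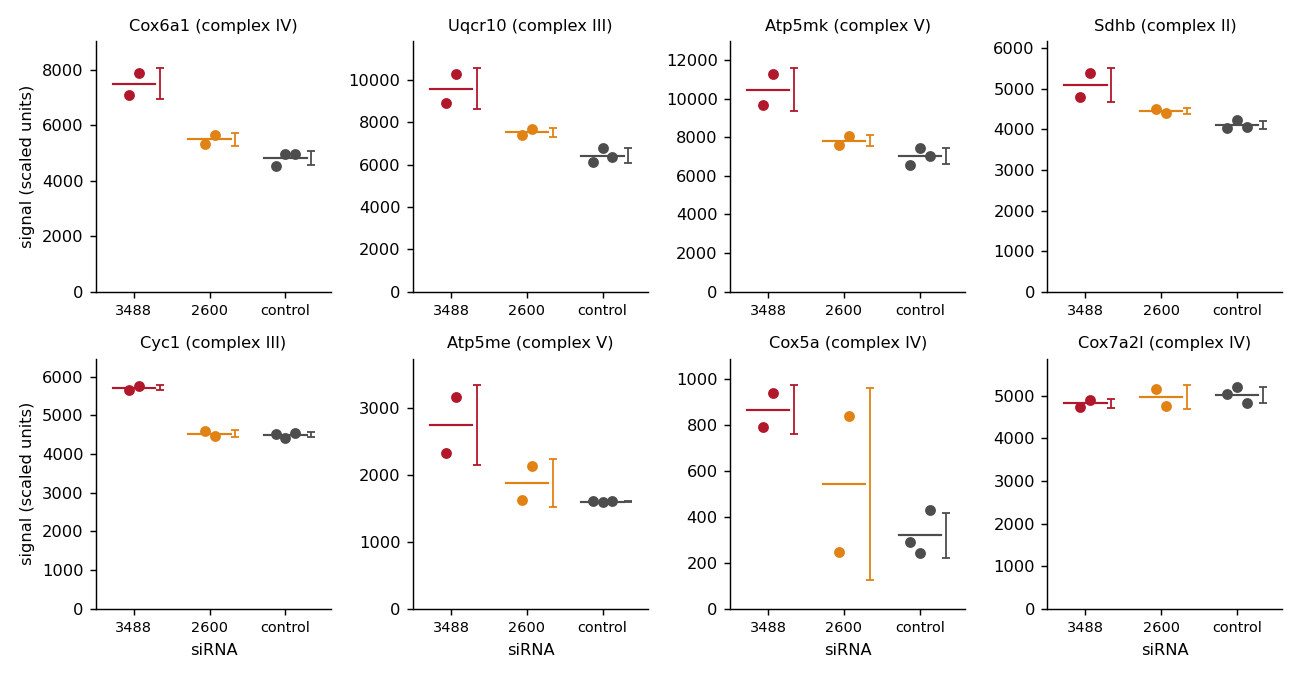
Signals of 8 of the genes on the 7 arrays, with a point per array, a line at the group mean and a bar of 1 SD to its right, from 0 upwards in scaled units. Cox6a1, Uqcr10, Atp5mk and Cyc1 show the siRNA 3488 arrays clear of the others, Cox5a shows the siRNA 2600 arrays far apart (247 and 835), and for Cox7a2l the groups overlap.

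Related genes were counted with siRNA 3488 in the same fit. Assembly factors of these complexes, which build them without remaining in them, had 3 probe sets called higher and 4 lower of 36 tested, with a median change of 0.06. These shares, 8.33% higher and 11.1% lower, are near the 6.89% and 8.74% of all probe sets. The counts are therefore no result about the assembly factors. Over the 36 the median excess over neighbours in brightness was 0.12. The 3 higher were both probe sets of Pet100, a complex IV assembly factor (0.51 and 0.59), and Uqcc2, a complex III factor (0.34). Among the 4 lower were both probe sets of Cox15, which makes the heme of complex IV: 1 read 834 and 767 in siRNA 3488 cultures, against 1229.7, 1189 and 1166 in control cultures, a change of -0.58 (adjusted p = 0.00394), and the other changed by -0.34. The other 2 were probe sets of Uqcc1, another complex III factor (-0.39; its other tested probe set, at 0.13, was not called), and of the copper factor Cox11 (-0.72).

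Of the citric acid cycle, which feeds these complexes, 1 of 13 probe sets was called higher, Mdh2 (malate dehydrogenase, 0.27; adjusted p = 0.0174), and 0 lower, with a median of 0.00. That is 7.69%, near the 6.89% of all probe sets. Of the phosphate and adenine nucleotide carriers and the porins, which move the substrates of ATP synthesis across the membranes, 6 of 7 were higher, and 6 of the 7 lie in the brightest twentieth. The phosphate carrier gene Slc25a3 read 11948 and 13034 in siRNA 3488 cultures, against 8892, 9519 and 9514 in control cultures, a change of 0.42 (adjusted p = 0.0044). The adenine nucleotide carrier genes Slc25a4 and Slc25a5 rose by 0.38 and 0.42. Over the 7 the median excess over neighbours in brightness was 0.08.

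Complex I, the entry point for electrons from NADH, had 17 of 44 probe sets called higher and 0 lower, with a median change of 0.21 and a median excess over neighbours in brightness of 0.21. The cytosolic ribosomal proteins, of which 37 of 44 lie in the brightest twentieth, had 41 of 44 higher and a median change of 0.46. Their neighbours in brightness had a typical change of 0.44, against 0.13 for the neighbours of complexes II to V. The median excess was 0.03, against 0.20 for complexes II to V. Neighbours of complexes II to V came from outside the set, whereas those of the other lists above could include the same list. These excesses therefore rest on unlike references. The difference between these excesses was not tested. All 7 probe sets with several symbols were called higher with siRNA 3488, with changes of 0.26 to 0.70, against 6.89% of all probe sets. Of the 7, 4 lie in the brightest twentieth, where 55.3% of the 895 others were called higher. Over the 7 the median excess over neighbours in brightness was 0.24.

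The nuclear regulators of these genes and the genes that maintain mitochondrial DNA had 0 of 22 probe sets called higher and 3 lower (13.6%, against 8.74% of all probe sets). With counts this small that share is not read as a result about the list, and the 3 probe sets are given for their own values. Yy1, a zinc-finger factor, read 2925 and 2617 in siRNA 3488 cultures, against 3503, 3553 and 3474 in control cultures. Its change was -0.34 ± 0.0698 (SE, limma adjusted p = 0.0117). Its other probe set had a change of -0.10 and was not called. Gabpa, the DNA-binding part of the ETS-type factor GABP, read 1145 and 988 in siRNA 3488 cultures, against 1393, 1509.5 and 1355 in control cultures, a change of -0.41 ± 0.0899 (SE; adjusted p = 0.0145). Nrf1, the nuclear respiratory factor, read 100.4 and 110.3 in siRNA 3488 cultures, against 172, 166 and 164 in control cultures for its dim called probe set, a change of -0.67 (adjusted p = 0.0391). Another Nrf1 probe set had -0.23 (adjusted p = 0.356). The siRNA 3488 arrays lay below all controls for the 3 called probe sets, and their neighbours in brightness had a typical change of -0.09 over the list. Without siRNA 3488 replicate 2 none of the 3 was called, with limma adjusted p of 0.0945 for Yy1, 0.127 for Gabpa and 0.111 for Nrf1.

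The promoters were searched for the letters of sites these factors are known to bind, over 250 bases before to 50 after the start, on both strands, in RefSeq's GRCr8 sequences. A promoter was at hand for 42 of the 49 genes. GCGCATGCG, the NRF1 motif, was found in 4 of 42 (9.52%), against 1.52% of 33469 promoters in all. CCGGAAGT, for ETS factors such as GABP, was in 5 (11.9%, against 3.81%), AAGATGG, for YY1, in 10 (23.8%, against 7.01%), and TCAAGGTCA, for the estrogen-related receptors, in 2 (4.76%, against 0.433%). At least 1 motif was in 17 of the 42, and no motif overlapped another. The NRF1 letters read nearly alike on both strands, so a single place can match on both. They were found before Atp5me, Atp5mg, Atp5po and Uqcrc1, whose log2 changes with siRNA 3488 were 0.76, 0.51, 0.44 and 0.20. The 250 bases before the start are shown for the 3 whose window lies wholly outside the annotated gene, with the NRF1 letters in capitals to show where they lie; Atp5mg has them on the other strand. The windows are at chr8:54130408-54130657 (minus strand), chr11:44657484-44657733 (minus strand) and chr8:118467973-118468222 (plus strand) of GRCr8.
Atp5mg: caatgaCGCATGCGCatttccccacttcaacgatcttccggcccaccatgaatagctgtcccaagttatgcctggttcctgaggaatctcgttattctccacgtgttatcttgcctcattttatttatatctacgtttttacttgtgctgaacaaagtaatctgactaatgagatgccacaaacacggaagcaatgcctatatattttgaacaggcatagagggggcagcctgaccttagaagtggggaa
Atp5po: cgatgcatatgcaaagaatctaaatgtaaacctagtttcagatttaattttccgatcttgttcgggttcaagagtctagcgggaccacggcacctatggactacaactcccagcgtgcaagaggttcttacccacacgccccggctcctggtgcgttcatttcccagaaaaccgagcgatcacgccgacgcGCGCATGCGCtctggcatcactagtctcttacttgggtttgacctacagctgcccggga
Uqcrc1: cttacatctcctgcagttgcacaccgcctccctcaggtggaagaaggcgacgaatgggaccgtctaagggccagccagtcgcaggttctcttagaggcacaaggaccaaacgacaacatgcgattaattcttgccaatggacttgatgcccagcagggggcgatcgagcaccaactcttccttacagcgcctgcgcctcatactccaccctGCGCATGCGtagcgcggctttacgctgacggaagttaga
Counted from the start, the letters begin at -244, -59 and -39. These matches are descriptions of sequence, and binding was not measured.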

How the data were processed

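RNA from 7 cultures of NRK-52E cells was hybridised to 1 Affymetrix array each. The deposited values are linear signal intensities, 1 per probe set and array, made by the authors with GCOS 1.4, per the submitters' processing notes. For background, summary, scaling settings and detection calls, nothing is given in the sources used here. The deposited intensities share a trimmed mean of 500.0 (lowest and highest 2% left out). Of 31099 probe sets, 57 controls were removed. Values below 1 were raised to 1 before log2, and the upper 60% by mean log2 signal (18625 probe sets) were tested with limma 3.58.1 in R 4.3.3, with an intensity trend in the variance and Benjamini-Hochberg adjustment over all tested probe sets. Each single siRNA and the difference between them came from a fit of 3 groups, and both siRNAs together from a fit of 2 groups. The steps were tested on simulated data. Gene symbols came from the platform annotation, in which 20826 probe sets had 1 symbol and 436 several. Only the arrays, 2, 2 and 3 a group, count as replicates. The labels call the cultures independent.

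Signals on all arrays are given for the 6 probe sets of lowest p in each complex, 1 for a gene, for those called in another comparison, for genes whose probe sets differ in call and for tissue isoforms. Of the other lists, up to 4 of lowest p are named, and the genes added beyond these were chosen after their values were seen. The genes and lists were chosen with earlier results of these data known. Promoter sequences are RefSeq's, of assembly GRCr8. Other scalings, filters, offsets, variance priors, a replicate block and leaving out each array were tried as alternatives.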

Additional observations from a re-analysis of the deposited data

Results flagged for a closer look

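Among the 4 siRNA arrays, the log2 signal of Atp5mf had 1 array far above the other 3, siRNA 3488 replicate 2, with a gap of 0.962 of the whole range. Cox5a had 1 array far below the other 3, siRNA 2600 replicate 1, with a gap of 0.870 of the range. Of 47 probe sets checked, these 2 passed Dixon's critical value at the 95% level, which chance passes in about 1 of 20. That rate holds for values of 1 population. The 4 arrays pool 2 siRNA groups, so it need not hold here.

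The effects of the siRNAs, each against the control, differed by the limma test of the difference for 9 probe sets. The difference, siRNA 3488 minus siRNA 2600 on the log2 scale, was 0.446 for Cox6a1, 0.428 for Cox6c, 0.420 for Cox7b, 0.416 for Atp5mk, 0.368 for Atp5pb, 0.348 for Uqcr10, 0.348 for Cox6b1, 0.334 for Cyc1 and 0.250 for Atp5f1b. Both siRNA effects share the same 3 control arrays.

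The hybridisation spike-ins, which no comparison uses, were brighter with siRNA 3488 than with the control by a median of 0.519 on the log2 scale over 18 probe sets. Their part in the results was not tested.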

How the results depend on the processing

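Leaving out 1 array at a time gave 7 to 36 called probe sets for siRNA 3488 against the control (7 without siRNA 3488 replicate 2, 16 without control replicate 1), with medians of 0.26 to 0.39. For siRNA 2600 it gave 0 to 1, with medians of 0.06 to 0.14, for both siRNAs 0 to 14, with medians of 0.15 to 0.26, and for siRNA 3488 against siRNA 2600 0 to 15, with medians of 0.16 to 0.28. For siRNA 3488 against the control the count of 34 was 17 with quantile normalization, 19 with cyclic loess and 3 without the intensity trend, and the median of 0.34 was 0.16, 0.18 and, with median centring, 0.44. The median for siRNA 2600 was 0.18 with median centring. For both siRNAs the count was 22 in the fit of 3 groups, and the median was 0.0918 with quantile normalization, 0.12 with cyclic loess and 0.30 with median centring. For siRNA 3488 against siRNA 2600 the count of 9 was 1 with quantile normalization, 3 with cyclic loess, 2 without a filter, 0 without the intensity trend, 0 with the 4 siRNA arrays alone and 19 with the replicate block, and the median was 0.0921 and 0.12 after the 2 normalizations. For both siRNAs the fit of 3 groups called 665 higher and 713 lower over all probe sets. Over all probe sets siRNA 3488 against siRNA 2600 gave 529 higher calls. In the order of the settings just given, these were 238, 321, 183, 2, 11 and 792. The causes were not tested.

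The sign of single changes with siRNA 3488 against the control turned as follows. With quantile normalization the log2 changes were -0.00309 for Cox4i1, -0.0305 for Atp5mc3, -0.0345 for Atp5pd, -0.013 for Sdha, -0.0262 for Atp5f1a, 0.0323 for Cox6c-ps1, -0.0111 for Uqcrfs1, -0.116 for Uqcrc2 and -0.0816 for Uqcr11. With cyclic loess they were -0.0192 for Sdha, 0.0232 for Cox6c-ps1, -0.0718 for Uqcrc2 and -0.0969 for Uqcr11. Median centring gave 0.0196 for Cox6c-ps1 and 0.0341 for Cox7a2l. Leaving out 1 array at a time gave -0.20 to 0.050 for Cox6c-ps1, -0.0155 to 0.233 for Sdhaf4, -0.0235 to 0.181 for Sdhaf2 and -0.0247 to 0.0915 for Uqcr11, with the sign turned without siRNA 3488 replicate 2. Calls for Atp5mk, Cox6a1 and Uqcr10 were kept in all 17 alternatives, and the Nrf1 call was lost in 10 of 15.

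Over all 18625 probe sets, siRNA 3488 against the control gave 1283 higher and 1628 lower calls, against 1728 and 576 with median centring, 852 and 987 with quantile normalization and 211 and 380 without the intensity trend. Deviations of arrays with the same replicate number correlated at -0.05 to 0.16, so the numbers were not taken to pair the samples; with them as a block, 35 probe sets were called for siRNA 3488 against the control. With 2 or 3 arrays a group, small changes of single genes could not be resolved.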
